A study of Mus musculus with 45 samples.

Results

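The genes described are 10 that serve iron handling and ferroptosis, in 45 mRNA sequencing libraries of mouse mammary tumour cell lines. They are Tfrc, Slc11a2, Fth1, Ftl1, Ncoa4, Slc40a1, Acsl4, Lpcat3, Aifm2 and Ptgs2, and they were chosen by symbol from the table of counts, in which all 10 are among 28454 listed genes. The rule uses symbols and no measured value, but the set was proposed with earlier results of these data known. Every library comes from cells of MMTV-cMYC mice, in which the mouse mammary tumour virus promoter drives c-MYC mainly in mammary epithelium. The MYAZ16.1e, MYAZ12.3i and MYAZ6.6g lines (MYAZ subtype) come from mammary tumours of such mice, and Myc310 is a single line from a mouse that bore multiple tumours. LM1, LM2 and LM3 (LM subtype) were recovered from lungs after Myc310 cells had been placed in the mammary fat pad. A further passage of LM1 cells, injected and taken from lungs again, gave LM1-LM, of which LM2-LM and LM3-LM are biological replicates (LM-LM subtype). All 10 lines were grown in control medium. Cultures of MYAZ16.1e and Myc310, and of LM1 and LM1-LM, were also kept without cysteine and cystine for 6 h. An additional MYAZ12.3i line that expresses NDI1, the NADH dehydrogenase of yeast mitochondria, was grown in control medium only. The labels spell the names MYAZ16_1e, MYAZ12_3i_NDI1, LM1_LM and so on. Each line and medium has 3 cultures, seeded at 250000 cells per well and given their medium after 24 h. The study calls the cultures technical replicates, so p-values for deprivation and NDI1 measure the spread between cultures of a line. Those for subtypes come from a fit in which the spread between lines enters, but which counts each culture as a separate sample. Cultures of a line are not independent, so these p-values and SE can be too small and the intervals too narrow. Results on counts summed per line are therefore given below. Each subtype effect rests on 3 lines or, for Myc310, on 1. The study's methods give young virgin FVB/NJ mice as recipients of fat pad injections.

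Cells take up transferrin-bound iron through the transferrin receptor, move it across the endosomal membrane, use it or store it inside ferritin, and release ferritin iron by autophagy. When iron is scarce, iron regulatory proteins bind hairpins called iron responsive elements (IREs) in messenger RNA. A hairpin before the coding sequence then blocks translation, and the hairpins after the coding sequence of the transferrin receptor shield its mRNA from decay. Ferroptosis is a death programme in which iron-dependent peroxidation destroys polyunsaturated phospholipids. Cystine uptake and glutathione peroxidase 4 hold it back, and loss of cystine is a standard way to provoke it in culture. The comparison of deprived with control cultures asks how these transcripts stand 6 h after cystine is withdrawn. The comparison of subtypes asks how they differ between lines of unlike metastatic potential. Since the LM and LM-LM lines all descend from Myc310, tumour of origin and metastatic potential cannot be told apart in it.

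Library totals ran from 19517859 to 29019988 gene counts, with a median of 22899900. Cultures of a group were compared in pairs by the chi-square per degree of freedom of their counts. Control culture 1 of MYAZ16.1e stood apart, at 5.72 and 6.76 from the others against 3.39 between those, and so did control culture 1 of LM1-LM, at 5.04 and 6.33 against 2.94. At lower values the same held for control culture 2 of Myc310 (4.39 and 3.95 against 2.55), of LM3-LM (3.79 and 3.96 against 2.31) and of MYAZ12.3i (3.44 and 3.94 against 2.29). MYAZ16.1e is the reference of every interaction test. With replicate 1 of each group left out, 5 of the 9 genes tested passed for deprivation in MYAZ16.1e in place of 7, 9 in LM1-LM, as with it, and 5, 5 and 7 for the interactions of Myc310, LM1 and LM1-LM in place of 6, 7 and 7. With replicate 2 left out, 7 passed for deprivation in Myc310 in place of 8, 5 for its interaction, and of all 10 genes 3, 7 and 7 for Myc310, LM and LM-LM against MYAZ in place of 4, 8 and 8. Levels are given as CPM, the counts scaled to a common library total after TMM adjustment, over all 45 libraries. In bulk RNA, fewer cells of a kind and less RNA per cell cannot be told apart. Among 8 epithelial markers Krt8 ran from 217 to 222 CPM in MYAZ12.3i, the lowest line, to 1678 to 1731 CPM in LM3-LM, the highest, whereas Epcam, at no more than 0.802 CPM in any library, and Cdh1, at no more than 0.284 CPM, were near 0 throughout. Of 7 listed leukocyte markers Lyz2 and Fcgr1 had no count in the MYAZ and LM control libraries. Of 10 fibroblast markers Fap and Lum had none in the MYAZ control libraries, but the summed level there was 12.9 to 407 CPM, mostly Acta2 in MYAZ12.3i and MYAZ6.6g (305 to 323 and 244 to 251 CPM, and 5.41 to 6.57 CPM in MYAZ16.1e), against 1.30 to 1.54 CPM in Myc310, 2.63 to 23.2 CPM in LM and 3.85 to 18.8 CPM in LM-LM. Endothelial markers summed to at most 7.08 CPM and alveolar markers to at most 6.67 CPM in any library.

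Sequences that resemble IREs are shown for the genes in which a fixed pattern found them. In GENCODE mouse release 21 (GRCm38) the coding transcripts were searched for C, 5 stem bases, the loop CAGTGN and 5 bases that pair with the stem, with G-U pairs allowed. Matches in untranslated regions were found for 4 of the 10 genes, against 0.142% of 21901 coding genes with a match before the coding sequence and 0.589% with a match after it. Fth1 and Ftl1, the ferritin heavy and light chains, and Slc40a1 each carried a match before the coding sequence, and Tfrc carried 4 after it. They lay in 4 of 5 annotated coding transcripts of Fth1, 1 of 2 of Ftl1, 1 of 4 of Slc40a1 and 1 of 3 of Tfrc, and the counts are per gene. The matches are printed 5′ to 3′ as DNA, with the loop in capitals.
Fth1, chr19:9982735-9982757, plus strand: ctgcttcaaCAGTGCttgaacgg
Ftl1, chr7:45459782-45459804, minus strand: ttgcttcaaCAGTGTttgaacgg
Slc40a1, chr1:45925468-45925490, minus strand: cttcagctaCAGTGTtagctaag
Tfrc, chr16:32631222-32631244, plus strand: tatcggaagCAGTGCcttccata
Tfrc, chr16:32631601-32631623, plus strand: tatcgggagCAGTGTcttccata
Tfrc, chr16:32631666-32631688, plus strand: tatcggagaCAGTGAtctccata
Tfrc, chr16:32631713-32631735, plus strand: tatcgggaaCAGTGTttcccata
The loops of Fth1 and of the first Tfrc match end in C, those of Ftl1, Slc40a1 and 2 Tfrc matches in T, and that of the remaining Tfrc match in A. A match is a description of the letters and was not tested for binding. The pattern allows no bulge or unpaired base within the 5 stem bases, so elements of another shape would be missed. A gene without a match may still carry an element.

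On GRCm38 the iron genes lie at chr16:32608920-32632794 (Tfrc), chr15:100387898-100425072 (Slc11a2), chr19:9980598-9985098 (Fth1), chr7:45457944-45459884 (Ftl1), chr14:32159865-32179855 (Ncoa4) and chr1:45908068-45926523 (Slc40a1). The others lie at chrX:142317993-142390535 (Acsl4), chr6:124663027-124704418 (Lpcat3), chr10:61715263-61739260 (Aifm2) and chr1:150100031-150108227 (Ptgs2). Genes on the opposite strand overlap Ftl1, Slc11a2, Lpcat3 and Aifm2, a further gene overlaps Ftl1 on its own strand, and the library kit keeps strand while the strand setting of the counting is not given in the sources used here. A near-identical ferritin light chain copy, listed as Ftl1-ps2, received 20163 counts over all libraries against 2335101 for Ftl1, so how reads were split between them is uncertain. Per kilobase of annotated exon, the median over the 10 lines in control medium was highest for Ftl1 (1584 CPM per kb) and Fth1 (617 CPM per kb). Tfrc followed at 78.9 CPM per kb. Acsl4, Lpcat3, Ncoa4 and Aifm2 lay between 10.3 and 23.1 CPM per kb, Slc11a2 at 6.86 and Ptgs2 at 3.75 CPM per kb, and Slc40a1 had 0.00468 CPM per kb. Ferritin thus made up most of the signal of the set, and the iron exporter was close to the limit of detection. Exon bases were joined over all annotated transcripts (3469 for Fth1, 1340 for Ftl1 and 9365 for Ncoa4). The order per kilobase, also that of the ferritin chains, therefore depends on the annotation.

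**Figure D1:**
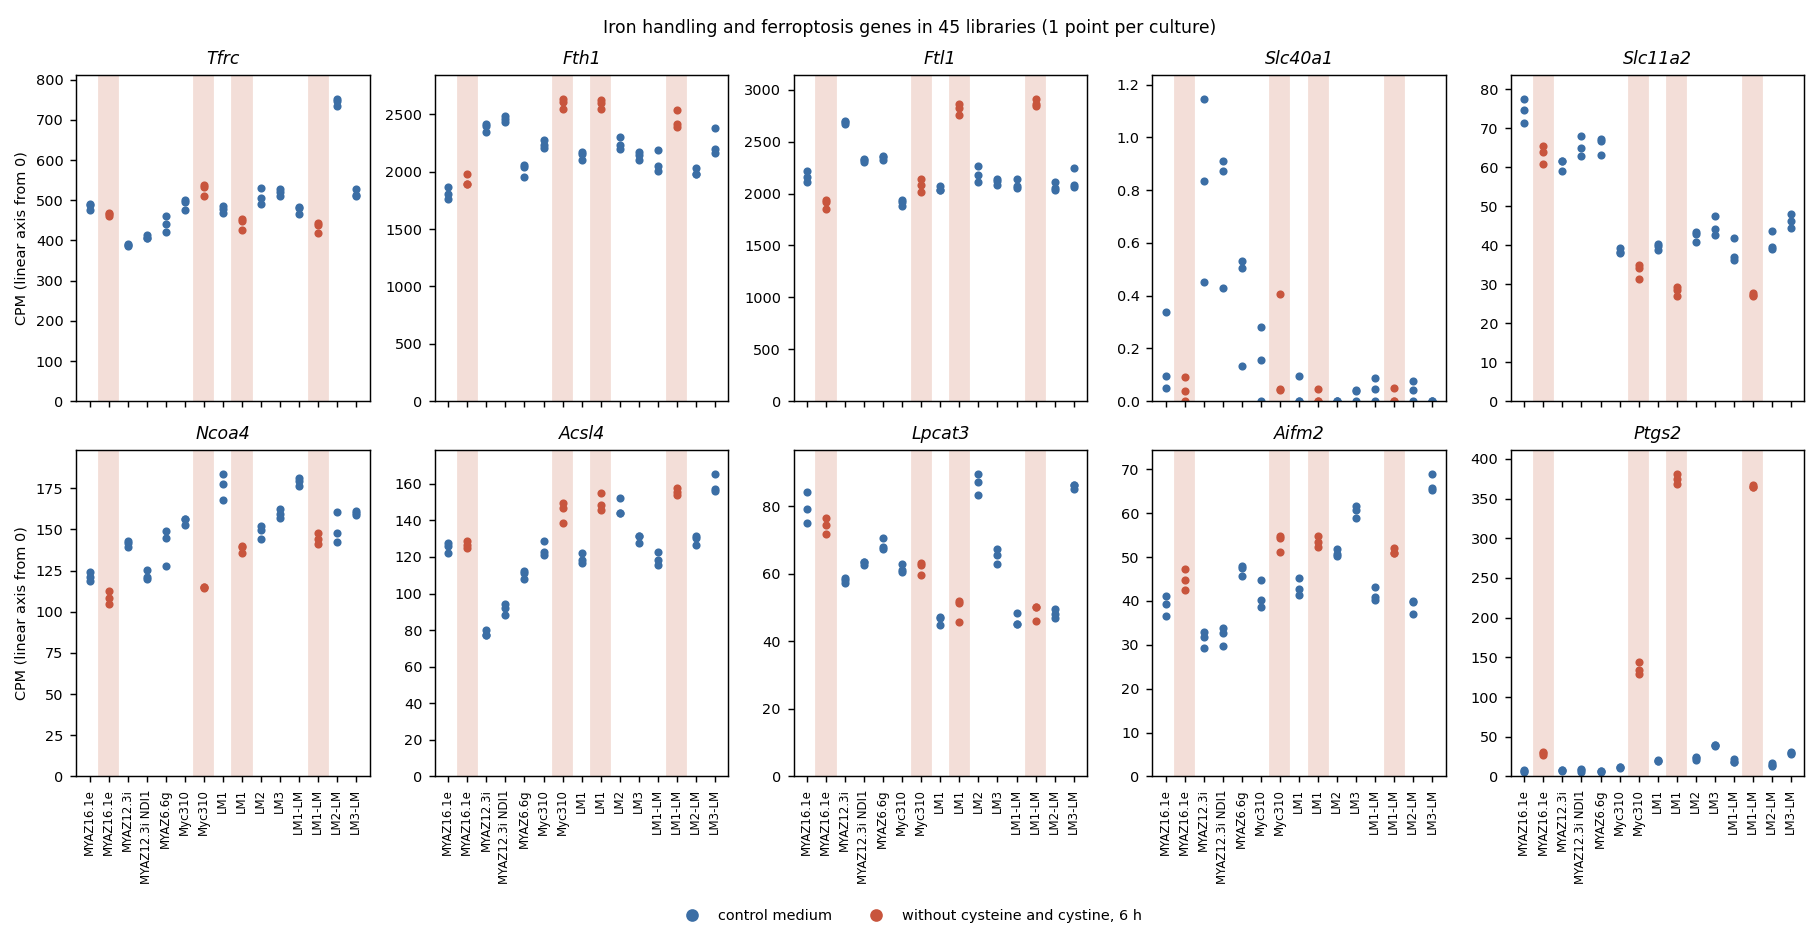
CPM of each gene (linear vertical axes from 0) in 11 lines, with 1 point per culture, blue for control medium and red on a shaded band for 6 h without cysteine and cystine. In Ptgs2 the deprived LM1 cultures lie at 369 to 381 CPM and the control LM1 cultures at 19.0 to 20.3 CPM.

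Removal of cysteine and cystine moved most of the set, as it did most of all 13400 genes tested, and the largest change within the set was in Ptgs2. Slc40a1 had too few counts for the filter, and of the 9 genes tested 3 rose, 4 fell and 2 did not pass the test in MYAZ16.1e, where edgeR's quasi-likelihood test called 26.6% of all 13400 genes higher and 27.1% lower. In Myc310 6 rose, 2 fell and 1 did not pass (32.8% and 33.9% of all genes). In LM1 6 rose, 3 fell (35.8% and 35.3%), and in LM1-LM 6 rose, 3 fell (36.5% and 35.9%). The median log2 fold change of the 9 genes was -0.07 in MYAZ16.1e, 0.11 for Myc310, 0.31 for LM1 and 0.27 for LM1-LM, beside medians over all 13400 genes between -0.01 and 0. Where the response of a line was set against that of MYAZ16.1e in an interaction test, 5 of the 9 were higher and 1 lower in Myc310 (19.8% and 20.4% of all genes). In LM1 5 were higher and 2 lower (26.9% and 25.3%), and in LM1-LM also 5 and 2 (28.4% and 26.4%). Medians of the 9 were 0.15, 0.23 and 0.20 in these tests, beside -0.02, 0.01 and 0.00 over all genes. Under upper-quartile scaling 41.0% of the LM1 and 41.6% of the LM1-LM interaction calls over all genes were higher, against 51.5% and 51.7% here. These 3 comparisons share the MYAZ16.1e libraries, each line stands for itself alone, and responses of Myc310, LM1 and LM1-LM were not tested against each other.

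Ptgs2 encodes cyclooxygenase 2, which starts prostaglandin synthesis and whose mRNA is widely used as a marker of ferroptosis. In MYAZ16.1e it stood at 7.66, 5.87 and 7.31 CPM in control medium and 29.1, 27.4 and 30.3 CPM without cysteine and cystine. In Myc310 it stood at 11.3, 12.1 and 10.4 CPM in control medium and 144, 134 and 129 CPM without cysteine and cystine. The deprived cultures were far above the controls in both lines, and the deprived Myc310 cultures were above every MYAZ16.1e culture. LM1 had 20.3, 19.0 and 19.9 CPM in control medium and 369, 381 and 375 CPM without cysteine and cystine. LM1-LM had 18.04, 21.5 and 18.5 CPM in control medium and 364, 368 and 364 CPM without cysteine and cystine. No deprived culture of a line overlapped its controls, and the deprived LM1 and LM1-LM cultures were the highest of the 45 libraries. The fitted increase was 4.14-fold in MYAZ16.1e (log2 fold change 2.05 ± 0.08, SE, 3 cultures each, adjusted p = 1.26e-19) and 11.9-fold in Myc310 (3.57 ± 0.06, adjusted p = 1.66e-29). It was 19.51-fold in LM1 (4.29 ± 0.05, adjusted p = 4.8e-33) and 19.4-fold in LM1-LM (4.28 ± 0.05, adjusted p = 3.42e-33). Against the response of MYAZ16.1e, that of Myc310 was larger by 1.52 ± 0.11 on the log2 scale, that of LM1 by 2.24 ± 0.11 and that of LM1-LM by 2.23 ± 0.11 (adjusted p = 3.46e-12, 8.01e-17 and 6.02e-17). Of 3 leukocyte markers tested 1 rose in MYAZ16.1e and 2 in each of the other lines, and of 6 epithelial markers 4 rose in MYAZ16.1e and 3 in each of the others, while Krt7 fell in LM1 and LM1-LM. Of 5 fibroblast markers 1 rose in each line and 1 fell in LM1 and LM1-LM, of 2 alveolar markers 1 fell in MYAZ16.1e, LM1 and LM1-LM, and the single endothelial marker tested did not pass in the 4 lines. Cd14, the leukocyte marker with most counts, moved in the same direction as Ptgs2. It had 21.6, 20.3 and 23.1 CPM in control and 53.9, 50.9 and 55.5 CPM in deprived LM1 cultures, and 32.7, 32.5 and 28.8 CPM and 42.7, 45.7 and 41.0 CPM in MYAZ16.1e, while Lyz2 and Fcgr1 had no count in any of the 12 deprived libraries. The part of these cells in the rise of Ptgs2 was not tested.

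Because Ptgs2 stood apart, the letters around its start were read from the RefSeq promoter windows (GRCm38.p6, 250 bases before to 50 after the start), which matched 8 of the 10 genes with 12 windows. 4 motifs were searched on both strands, TGATGNAA (the composite ATF4-C/EBP element), TGACGT (the cyclic AMP response element core), TTGCGCAA (a C/EBP palindrome) and TGACNNNGC (the antioxidant response element core). They occurred in 3.97%, 7.51%, 0.183% and 12.4% of all 32851 windows. The Ptgs2 window held the C/EBP palindrome 69 bases before the start and the cyclic AMP element core, on the minus strand, 12 bases after it. Both are printed on the plus strand with the motif in capitals.
C/EBP palindrome, chr1:150099951-150099980: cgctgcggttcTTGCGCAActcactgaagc
Cyclic AMP element core, chr1:150100031-150100060: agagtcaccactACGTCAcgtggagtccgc
Among the other genes TGACGT was also present in the windows of Tfrc and Acsl4, and TGACNNNGC in 1 window of Ncoa4. These matches are letters in a window and no measurement of binding. Offsets count from the annotated RefSeq start, which was not checked in these data, and would shift with another start.

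Ferritin stores iron in a shell of heavy chains (Fth1), which oxidise it, and light chains (Ftl1), which help it to mineralise. Fth1 in MYAZ16.1e was at 1806, 1760.4 and 1869 CPM in control medium and 1978, 1889 and 1896 CPM without cysteine and cystine. In LM1 it was at 2102, 2151 and 2173 CPM in control medium and 2599, 2625 and 2544 CPM without cysteine and cystine. The deprived cultures were higher in both lines, by a wider margin in LM1. The log2 fold change of Fth1 was 0.08 ± 0.03 in MYAZ16.1e (adjusted p = 0.0207), a call lost without replicate 1 (adjusted p = 0.164) or replicate 2 (adjusted p = 0.153). It was 0.20 ± 0.03 for Myc310, 0.31 ± 0.03 for LM1 and 0.27 ± 0.03 for LM1-LM (adjusted p = 3.51e-07, 4.11e-11 and 5.28e-10). The LM1 response exceeded that of MYAZ16.1e by 0.23 on the log2 scale (adjusted p = 1.39e-05) and the LM1-LM response by 0.20 (adjusted p = 0.00012). For Myc310 the excess was 0.12 (adjusted p = 0.0173), with adjusted p = 0.0841 without replicate 2 and 0.118 without replicate 3, and 0.0998 under upper-quartile scaling.

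Ftl1 fell in MYAZ16.1e and rose in the other 3 lines. MYAZ16.1e had 2115, 2162 and 2217 CPM in control medium and 1937, 1917 and 1852 CPM without cysteine and cystine. Myc310 had 1940.2, 1922 and 1883 CPM in control medium and 2012, 2083 and 2142 CPM without cysteine and cystine. Deprived cultures were thus below the controls in MYAZ16.1e and above them in Myc310. LM1 had 2033, 2033 and 2075 CPM in control medium and 2756, 2828 and 2860.0 CPM without cysteine and cystine. LM1-LM had 2072, 2049 and 2139 CPM in control medium and 2841, 2867 and 2914 CPM without cysteine and cystine. In these derivatives from lung the deprived cultures lay far above the controls. Ftl1 fell in MYAZ16.1e (log2 fold change -0.19 ± 0.02, adjusted p = 7.52e-08) and rose in Myc310 (0.11 ± 0.02, adjusted p = 0.000361). The Myc310 value ran from 0.0695 to 0.137 over 11 fits and passed in each. It rose by 1.41-fold in LM1 (0.49 ± 0.02, adjusted p = 1.48e-17) and 1.41-fold in LM1-LM (0.50 ± 0.02, adjusted p = 1.02e-17). The interaction with MYAZ16.1e was 0.30 ± 0.03 for Myc310, 0.69 ± 0.03 for LM1 and 0.69 ± 0.03 for LM1-LM (adjusted p = 3.5e-08, 2.19e-16 and 1.3e-16).

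Since heavy and light chains assemble together, their counts were also set against each other within each library, which leaves out scaling. In MYAZ16.1e the ratio of Fth1 to Ftl1 counts was 0.837 ± 0.0206 (SD, n = 3) in control medium and 1.01 ± 0.0212 after deprivation. In Myc310 it was 1.17 ± 0.00635 and 1.25 ± 0.0554, so both lines shifted towards the heavy chain. LM1 went from 1.05 ± 0.0120 to 0.920 ± 0.0276, and LM1-LM from 0.998 ± 0.0610 to 0.853 ± 0.0316, a shift towards the light chain. Control and deprived ratios did not overlap in any of the 4 lines, and the exact two-sided permutation test gave p = 0.1 in each, the smallest that 3 against 3 cultures allow. The ratio compares counts and not molecules, since the transcripts differ in length.

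**Figure D2:**
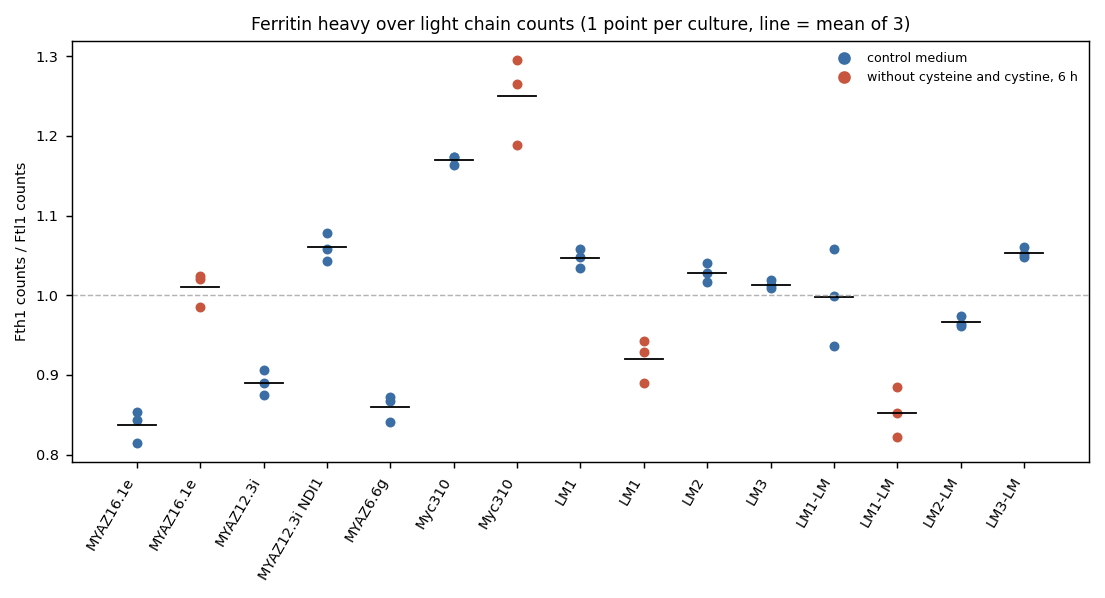
Fth1 counts divided by Ftl1 counts (vertical axis, no unit) in 11 lines, 1 point per culture, with a black bar at the mean of 3, blue for control and red for deprived medium, and a dashed line at 1. The deprived group lies above its control in MYAZ16.1e and Myc310 and below it in LM1 and LM1-LM, and the lines of the MYAZ subtype have the lowest control ratios. The MYAZ12.3i line with NDI1 lies at 1.06.

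Ncoa4 is the receptor that delivers ferritin to autophagosomes for iron release. It stood at 124, 121 and 119 CPM in control medium and 112, 108 and 105 CPM without cysteine and cystine in MYAZ16.1e. In Myc310 it stood at 157, 152 and 156 CPM in control medium and 115, 115 and 115 CPM without cysteine and cystine. Deprived cultures were below all controls in these and in LM1 and LM1-LM. Ncoa4 fell by 0.17 on the log2 scale in MYAZ16.1e, and its log2 fold change was -0.45 ± 0.03 for Myc310, -0.32 ± 0.03 for LM1 and -0.27 ± 0.03 for LM1-LM (adjusted p = 4.47e-05, 9.48e-14, 1.22e-10 and 2.13e-09). The fall was deeper in Myc310 than in MYAZ16.1e, with a log2 difference of -0.28 ± 0.04 (adjusted p = 7.29e-06). For LM1 the difference was -0.15 (adjusted p = 0.00521, and 0.161 without replicate 1). For LM1-LM it was -0.10 (adjusted p = 0.0439, and 0.227 and 0.148 without replicates 2 and 3, and 0.111 with a looser filter of 1 count).

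Slc11a2 encodes the divalent metal transporter that carries ferrous iron out of the endosome. In MYAZ16.1e it had 71.4, 77.6 and 74.6 CPM in control medium and 64.0, 65.4 and 60.8 CPM without cysteine and cystine. In LM1 it had 40.3, 38.8 and 39.7 CPM in control medium and 29.2, 26.9 and 28.6 CPM without cysteine and cystine. In all 4 lines the deprived cultures lay below the controls. The log2 fold change of Slc11a2 was -0.24 ± 0.05 in MYAZ16.1e, -0.21 ± 0.05 for Myc310, -0.45 ± 0.05 for LM1 and -0.45 ± 0.05 for LM1-LM (adjusted p = 5.68e-05, 0.000691, 1.17e-08 and 1.05e-08). The difference from the MYAZ16.1e response was -0.21 ± 0.07 in LM1 (adjusted p = 0.0135, and 0.0829 and 0.0876 without replicates 1 and 2) and -0.21 ± 0.07 in LM1-LM (adjusted p = 0.013, and 0.115 without replicate 3). In Myc310 it was 0.03 with a 95% interval of -0.12 to 0.17 and did not pass the test.

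Tfrc, the transferrin receptor, changed by small amounts. MYAZ16.1e had 487, 476 and 492 CPM in control medium and 467, 467 and 461 CPM without cysteine and cystine. Myc310 had 502, 475 and 495 CPM in control medium and 537, 532 and 510.3 CPM without cysteine and cystine, and LM1-LM had 465, 481 and 482 CPM in control medium and 443, 438 and 419 CPM without cysteine and cystine. Deprived cultures lay below the controls in MYAZ16.1e, LM1 and LM1-LM and above them in Myc310. The log2 fold change was -0.07 ± 0.03 in MYAZ16.1e, 0.09 ± 0.03 for Myc310, -0.07 ± 0.03 for LM1 and -0.10 ± 0.03 for LM1-LM (adjusted p = 0.0361, 0.00493, 0.0149 and 0.00195). The MYAZ16.1e call on Tfrc was lost when any 1 of the 3 replicates was left out (adjusted p from 0.0563 to 0.138), the Myc310 call without replicate 2 (adjusted p = 0.18) and the LM1 call without replicate 3 (adjusted p = 0.101). Upper-quartile scaling also ended the Tfrc calls in MYAZ16.1e and Myc310 (adjusted p = 0.0513 and 0.073). The response of Tfrc differed from that of MYAZ16.1e in Myc310, by 0.15 ± 0.04 (adjusted p = 0.00144), and the 95% interval of the difference was -0.09 to 0.07 in LM1 and -0.11 to 0.05 in LM1-LM. Slc40a1, ferroportin, through which cells export iron, was too low for the main filter, with 3 counts in all in the deprived MYAZ16.1e libraries, 11 for Myc310, 1 for LM1 and 1 for LM1-LM. In the 2 alternative fits that kept Slc40a1 it passed in no line (adjusted p = 0.293 in MYAZ16.1e). Its control and deprived values overlapped in the 4 lines.

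Acsl4 activates arachidonic acid and related fatty acids, and Lpcat3 places them in phospholipids, where they can be peroxidised. Acsl4 in MYAZ16.1e had 127, 122 and 126 CPM in control medium and 125, 127 and 129 CPM without cysteine and cystine, and the groups overlapped. In LM1-LM it had 116, 123 and 118 CPM in control medium and 158, 154 and 156 CPM without cysteine and cystine, with every deprived culture above every control. The log2 fold change of Acsl4 was 0.01 ± 0.03 in MYAZ16.1e (adjusted p = 0.789), 0.21 ± 0.03 for Myc310, 0.36 ± 0.03 for LM1 and 0.43 ± 0.03 for LM1-LM (adjusted p = 1.36e-06, 2.75e-11 and 4.15e-13). The excess over the MYAZ16.1e response was 0.35 ± 0.05 for LM1 and 0.42 ± 0.05 for LM1-LM (adjusted p = 1.57e-07 and 4.59e-09), and 0.20 ± 0.05 in Myc310 (adjusted p = 0.00089, and 0.0703 without replicate 1). Lpcat3 in LM1 had 47.1, 44.9 and 46.9 CPM in control medium and 45.6, 51.3 and 52.0 CPM without cysteine and cystine, and control and deprived cultures overlapped in all 4 lines. Its log2 fold change was -0.10 ± 0.05 in MYAZ16.1e and -0.01 ± 0.05 in Myc310, neither past the threshold (adjusted p = 0.0657 and 0.917), and 0.14 ± 0.05 for LM1 and 0.12 ± 0.05 for LM1-LM (adjusted p = 0.0194 and 0.045). The Lpcat3 calls were lost under upper-quartile scaling (adjusted p = 0.312 for LM1 and 0.583 for LM1-LM) and without replicate 2 or 3 (adjusted p = 0.279 and 0.203 in LM1, 0.0787 and 0.357 in LM1-LM), and in LM1-LM also with DESeq2, RLE scaling (another library size factor), the looser and a stricter filter (10 counts in each library) and a fit of that line alone (adjusted p = 0.108, 0.095, 0.0607, 0.0667 and 0.0646), so that it passed in 3 of 11 fits. In MYAZ16.1e Lpcat3 passed as lower with DESeq2, with the looser filter and without replicate 2 (adjusted p = 0.047, 0.0391 and 0.0222). The interaction for Lpcat3 was 0.24 ± 0.07 for LM1 and 0.22 ± 0.07 for LM1-LM (adjusted p = 0.00458 and 0.00863, and 0.0696 and 0.11 without replicate 3), and under upper-quartile scaling neither passed (adjusted p = 0.0562 and 0.109). In Myc310 it was 0.10, with a 95% interval of -0.04 to 0.23.

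Aifm2 encodes FSP1, which regenerates reduced coenzyme Q and limits lipid peroxidation beside glutathione peroxidase 4. MYAZ16.1e had 39.3, 41.1 and 36.6 CPM in control medium and 42.5, 47.3 and 44.7 CPM without cysteine and cystine. LM1-LM had 40.2, 41.0 and 43.2 CPM in control medium and 51.1, 52.1 and 50.9 CPM without cysteine and cystine. Deprived cultures exceeded all controls in the 4 lines. The log2 fold change of Aifm2 was 0.20 ± 0.05 in MYAZ16.1e (adjusted p = 0.00192, and 0.0765 without replicate 3), 0.36 ± 0.05 for Myc310, 0.34 ± 0.05 for LM1 and 0.35 ± 0.05 for LM1-LM (adjusted p = 3.8e-07, 7.2e-07 and 5.85e-07). A difference between these responses and that of MYAZ16.1e did not pass the test, with 95% intervals of 0.01 to 0.31 for Myc310, -0.01 to 0.30 for LM1 and 0.00 to 0.30 for LM1-LM, where it passed without replicate 3 (adjusted p = 0.0435).

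**Figure D3:**
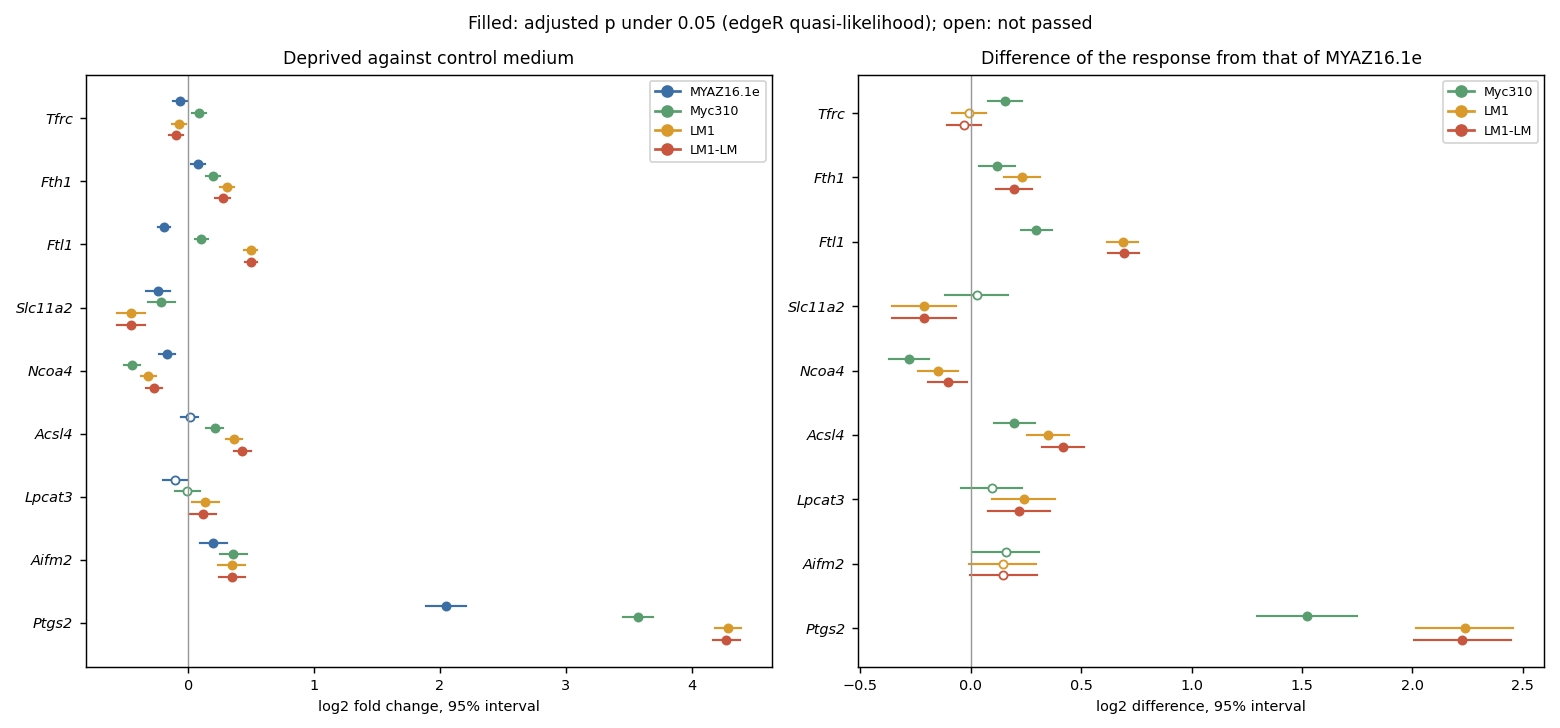
Log2 fold change of deprived against control cultures in 4 lines (left) and the log2 difference of each response from that of MYAZ16.1e (right), with 95% intervals; filled points passed an adjusted p of 0.05 and open points did not. Ptgs2 lies at 2.05 in MYAZ16.1e and at 4.29 in LM1, and Ftl1 lies on opposite sides of 0 in MYAZ16.1e and LM1.

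The wider pathway was followed in 4 lists, and each gene's 4 log2 fold changes are given with MYAZ16.1e first, then Myc310, LM1 and last LM1-LM. Of 18 genes of iron uptake and movement 13 were tested: 5 rose and 3 fell in MYAZ16.1e, 4 rose and 7 fell in Myc310, 5 rose and 7 fell in LM1 and 5 rose and 6 fell in LM1-LM, with list medians of -0.07, -0.11, -0.21 and -0.30 in that order of lines. Over all 13400 genes the shares that rose and fell were 26.6% and 27.1% in MYAZ16.1e, 32.8% and 33.9% in Myc310, 35.8% and 35.3% in LM1, and 36.5% and 35.9% in LM1-LM, and these stand beside the counts of all 4 lists: several counts lie near them, and none is read as particular to its list. Lcn2, which binds siderophores that carry iron, rose (0.39, 0.78, 1.07 and 0.88), as did the importer Slc39a14 (0.54, 0.61, 0.59 and 0.60). The haem exporter Flvcr1 fell (-0.42, -0.77, -0.96 and -0.97). Steap3, the endosomal reductase that prepares iron for Slc11a2, also fell (-0.38, -1.08, -1.49 and -1.77), with 22.7, 25.2 and 27.6 CPM in control and 8.87, 8.63 and 8.74 CPM in deprived LM1 cultures. Trf, transferrin itself, had too few counts to be tested. All 17 genes of iron sensing and use were tested: 4 rose and 8 fell in MYAZ16.1e, 6 rose and 10 fell in Myc310, 6 rose and 9 fell in LM1 and 7 rose and 9 fell in LM1-LM, with medians of -0.08, -0.21, -0.22 and -0.15. Hmox1, which frees iron from haem, rose from 16.6, 18.4 and 19.0 to 78.8, 79.7 and 77.8 CPM in MYAZ16.1e and from 33.7, 32.3 and 33.2 to 456, 455 and 481 CPM in LM1 (2.11, 3.03, 3.85 and 3.83). Its response exceeded that of MYAZ16.1e by 0.92 for Myc310, 1.73 for LM1 and 1.71 for LM1-LM (adjusted p = 4.88e-13, 4.95e-20 and 3.45e-20). Bach1, a haem-binding repressor of Hmox1, also rose (0.29, 0.72, 1.23 and 1.35), and Glrx5, which serves iron-sulphur cluster assembly, fell (-0.35, -0.75, -0.68 and -0.74). Of the iron regulatory proteins Ireb2 fell (-0.19, -0.29, -0.28 and -0.33), and Aco1 fell in 3 lines but did not pass the test in MYAZ16.1e (-0.03, -0.29, -0.44 and -0.35). Fbxl5, the iron-sensing adaptor that marks Ireb2 protein for degradation, rose (0.16, 0.26, 0.29 and 0.24).

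All 20 genes of ferroptosis defence were tested: 5 rose and 9 fell in MYAZ16.1e, 6 rose and 11 fell in Myc310, 7 rose and 9 fell in LM1 and 7 rose and 10 fell in LM1-LM, with medians of -0.16, -0.28, -0.30 and -0.16. Among all genes 35.8% rose and 35.3% fell in LM1, so 7 of 20 higher there is close to that share. Slc7a11, the cystine importer, rose (3.42, 2.94, 3.97 and 3.93) with its partner Slc3a2 (1.84, 1.78, 1.75 and 1.62). Dhodh, which reduces coenzyme Q in mitochondria, fell (-0.43, -1.01, -1.41 and -1.47), and so did the desaturase Scd2 (-0.55, -0.99, -1.47 and -1.63). Gpx4 rose slightly in 3 lines and did not pass the test in MYAZ16.1e (0.05, 0.13, 0.14 and 0.12). Of 25 genes of lipid peroxidation 17 were tested: 4 rose and 9 fell in MYAZ16.1e, 6 rose and 8 fell in Myc310, 6 rose and 9 fell in LM1 and 7 rose and 9 fell in LM1-LM, with medians of -0.14, -0.31, -0.09 and -0.30, beside the same shares of all genes as for the other lists. Cyb5r1, an electron donor to lipid peroxidation, rose (1.48, 2.12, 2.30 and 2.14), as did the polyamine acetyltransferase Sat1 (0.64, 1.46, 2.14 and 2.23). The fatty acyl enzymes Tmem164 (-0.52, -1.10, -1.67 and -1.74) and Lpcat1 (-1.08, -1.79, -2.45 and -2.59) fell. The medians of the 4 lists were below 0 in the 4 lines while those over all genes lay between -0.01 and 0.

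**Figure D4:**
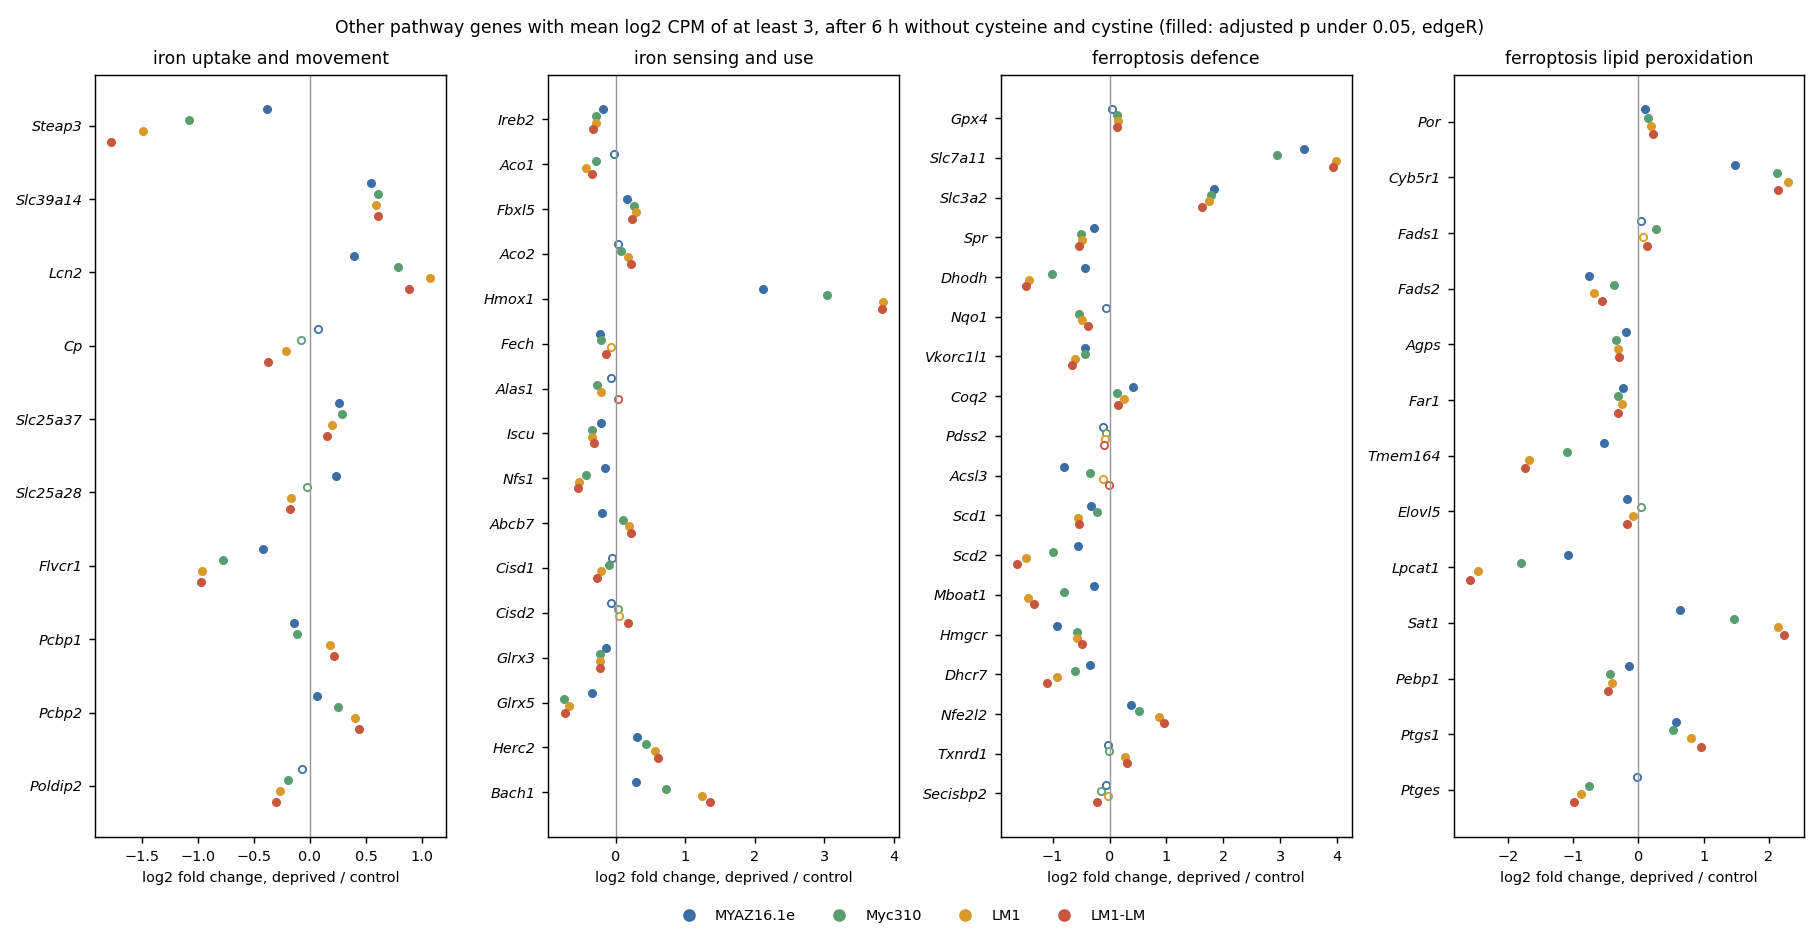
Log2 fold change of deprived against control cultures (horizontal axis) for genes of the 4 pathway lists whose average log2 CPM was 3 or more, 1 colour per line, filled where adjusted p was under 0.05. Hmox1 and Slc7a11 lie furthest to the right, and Lpcat1 reaches -2.59 in LM1-LM.

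In control medium Ptgs2 was higher in LM and LM-LM than in MYAZ, and Slc11a2 was lower in Myc310, LM and LM-LM. Slc40a1 was called lower in LM and LM-LM from few counts, and in Myc310 it did not pass (adjusted p = 0.104), except without MYAZ16.1e (adjusted p = 0.0287), with log2 values from -2.22 without replicate 3 to -0.84 without replicate 2. Against the MYAZ lines, 2 of the 10 genes were higher and 2 lower in Myc310, where 23.8% and 27.1% of 13795 genes were called. In LM 5 were higher and 3 lower (30.3% and 30.5%), and in LM-LM 5 and 3 (30.5% and 32.3%). The median log2 fold change of the 10 was 0.09, 0.13 and 0.13 in that order, beside medians of -0.02, 0.00 and -0.01 over all genes. The 3 comparisons share the MYAZ libraries, and the LM and LM-LM lines all descend from Myc310, so these lines are not independent of each other. When counts were summed per line, so that the line is the unit, 1, 3 and 3 genes passed (Slc11a2 in each, with Slc40a1 and Ptgs2 in LM and LM-LM). The summed level of fibroblast markers given above also separated MYAZ12.3i and MYAZ6.6g from the rest, and other markers moved too. Of the leukocyte markers Cd68, Itgam and Cd14 could be tested: all 3 were higher in Myc310 and LM and 2 in LM-LM, with medians of 0.85, 1.35 and 1.52. Their list summed to 17.7 to 39.0 CPM in MYAZ, 41.2 to 43.2 CPM in Myc310, 30.4 to 49.8 CPM in LM and 31.9 to 53.4 CPM in LM-LM, while Ptprc, the defining leukocyte gene, was at no more than 0.124 CPM in the control libraries. Of 6 epithelial markers tested 2 were higher and 2 lower in Myc310, and 3 higher and 2 lower in LM and LM-LM, and the list summed to 339 to 1175 CPM in MYAZ, 1383 to 1399.5 CPM in Myc310, 1105 to 2144 CPM in LM and 1016 to 2464 CPM in LM-LM. The part of these markers in the differences was not tested.

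Ptgs2 had line means of 6.95, 7.17 and 5.96 CPM in MYAZ16.1e, MYAZ12.3i and MYAZ6.6g, 11.3 in Myc310, 19.7, 22.6 and 39.3 in LM1, LM2 and LM3, and 19.3, 15.05 and 29.6 in LM1-LM, LM2-LM and LM3-LM. Every MYAZ culture was below every culture of the other 7 lines. Neighbours in this order whose cultures overlapped were LM1 and LM1-LM, and the MYAZ lines among themselves. The log2 fold change against MYAZ was 2.03 ± 0.18 for LM and 1.66 ± 0.18 for LM-LM (adjusted p = 9.06e-11 and 4.32e-09, and 0.00351 and 0.00702 on line sums). In Myc310 it was 0.75 ± 0.24 (adjusted p = 0.0116), and the call was lost on line sums (adjusted p = 0.297), on voom values with the line as a random block (0.252) and without replicate 2 (0.073) or replicate 3 (0.0611). Set on line means, the exact two-sided permutation test had p = 0.1 in both LM and LM-LM, the smallest that 3 against 3 lines allow. The lines with most Ptgs2 in control medium, LM3 and LM3-LM, were not among those deprived.

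Slc11a2 ran the other way, with 74.5, 60.8 and 65.7 CPM in MYAZ16.1e, MYAZ12.3i and MYAZ6.6g and between 38.3 (LM1-LM) and 46.2 CPM (LM3-LM) in the other 7 lines. No culture of a MYAZ line overlapped any culture of those 7, and each of the 7 overlapped its neighbour in the order of levels. Slc11a2 was lower, with a log2 fold change of -0.80 ± 0.09 for Myc310, -0.66 ± 0.06 for LM and -0.70 ± 0.06 for LM-LM (adjusted p = 9.98e-09, 7.95e-11 and 2.37e-11, and 0.0259, 0.0052 and 0.00388 on line sums). Slc40a1 was counted 98 times over the 9 MYAZ libraries, 10 times over 3 Myc310 libraries, 4 times over 9 LM libraries and 6 times over 9 LM-LM libraries. MYAZ12.3i held 11, 21 and 25 of these counts, MYAZ6.6g 3, 12 and 13, and MYAZ16.1e 1, 2 and 10. The ranges of MYAZ16.1e and LM overlapped at 1 to 2 counts. The edgeR test called Slc40a1 lower in LM and LM-LM (adjusted p = 9.08e-06 and 1.68e-05), the test on voom values with the line as a random block did not (adjusted p = 0.148 and 0.146), and no fold is given for LM and LM-LM because counts of 0 to 2 fix none.

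Ftl1 was lower than in MYAZ, with log2 fold changes of -0.33 ± 0.06 for Myc310, -0.18 ± 0.04 for LM and -0.21 ± 0.04 for LM-LM (adjusted p = 5.96e-05, 0.000622 and 8.73e-05), but none of these calls held on line sums (adjusted p = 0.17, 0.226 and 0.152). Line means of Ftl1 were 2165, 2684 and 2346 CPM in MYAZ16.1e, MYAZ12.3i and MYAZ6.6g, 1915 CPM in Myc310, and between 2047 and 2186 CPM in the 6 lines from lung, so MYAZ16.1e lay among the latter. Fth1, at 1812, 2389 and 2018 CPM in MYAZ16.1e, MYAZ12.3i and MYAZ6.6g, did not differ between subtypes past the threshold, with 95% intervals of -0.05 to 0.27 in Myc310, -0.04 to 0.18 in LM and -0.11 to 0.12 in LM-LM. Without MYAZ12.3i, the line with most Fth1, it was higher in all 3, by 0.22, 0.19 and 0.12 (adjusted p = 0.00239, 0.000686 and 0.0184), and against MYAZ16.1e alone by 0.32 for Myc310, 0.23 for LM1 and 0.19 for LM1-LM (adjusted p = 6.06e-09, 6.38e-07 and 8.06e-06). The Fth1 to Ftl1 count ratio was 0.837, 0.890 and 0.860 in MYAZ16.1e, MYAZ12.3i and MYAZ6.6g and between 0.966 and 1.17 in the other 7 lines of the subtype comparison.

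Ncoa4 was higher in all 3 subtypes, by 0.20 ± 0.07 for Myc310, 0.26 ± 0.05 for LM and 0.26 ± 0.05 for LM-LM (adjusted p = 0.0216, 6.53e-05 and 7.52e-05). These calls did not hold on line sums (adjusted p = 0.34, 0.0683 and 0.0624), and that in Myc310 was lost without replicate 1 or 3 (adjusted p = 0.143 and 0.0919) or without MYAZ16.1e (adjusted p = 0.105), and on voom values (adjusted p = 0.308). Line means ran from 121 CPM in MYAZ16.1e to 179 CPM in LM1-LM, with LM1 next at 177 CPM and overlapping it. Tfrc ranged from 388 ± 2.22 CPM in MYAZ12.3i to 744 ± 9.28 CPM in LM2-LM (SD, n = 3), and LM2-LM stood clear of LM3, the next line, at 520.2 ± 8.62 CPM. Against MYAZ, Tfrc was higher by 0.38 ± 0.09 in LM-LM (adjusted p = 0.000282) and 0.20 ± 0.09 in LM (adjusted p = 0.0462), but on line sums adjusted p was 0.0957 and 0.368. The LM-LM value leans on LM2-LM, since LM1-LM had 476 CPM and LM3-LM 517 CPM, beside 485 CPM in MYAZ16.1e and 441 CPM in MYAZ6.6g. In a fit restricted to the deprived lines' control cultures the difference turned to -0.03 for LM and -0.04 for LM-LM. The LM call on Tfrc was also lost under every replicate left out (adjusted p from 0.084 to 0.162) and under other scalings, and it passed in 7 of 23 fits.

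The lipid genes depended on which lines were compared. Acsl4 means were 125, 78.2 and 111 CPM in MYAZ16.1e, MYAZ12.3i and MYAZ6.6g, between 119 and 147 in the LM lines and between 119 and 159.6 in the LM-LM lines. Against MYAZ, Acsl4 was higher by 0.34 ± 0.10 for LM and 0.36 ± 0.10 for LM-LM (adjusted p = 0.00376 and 0.00204, but 0.197 and 0.157 on line sums). Without MYAZ12.3i, the line with least Acsl4, adjusted p was 0.076 in LM, without LM2 it was 0.0546, and without LM3-LM it was 0.0546 in LM-LM. With only MYAZ16.1e as reference Acsl4 was lower, with log2 fold changes of -0.08 for LM1 and -0.08 for LM1-LM (adjusted p = 0.0342 and 0.026). Lpcat3 spread from 46.2 ± 2.00 CPM in LM1-LM to 86.7 ± 3.13 CPM in LM2, and LM1-LM, LM1 and LM2-LM overlapped at the low end while LM2 and LM3-LM overlapped at the high end. No subtype difference of Lpcat3 passed the test, with 95% intervals of -0.63 to 0.30, -0.38 to 0.28 and -0.54 to 0.12 in Myc310, LM and LM-LM, although against MYAZ16.1e alone it was lower in all 3, with log2 fold changes of -0.36 for Myc310, -0.79 for LM1 and -0.79 for LM1-LM (adjusted p = 3.64e-07, 3.82e-12 and 3.12e-12). Without LM3-LM it was lower in LM-LM, at -0.57 (adjusted p = 0.000752).

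Aifm2 ranged from 31.4 ± 1.80 CPM in MYAZ12.3i to 66.7 ± 2.03 CPM in LM3-LM, and LM3-LM, LM3, LM2 and MYAZ6.6g followed each other without overlap. It was higher by 0.40 ± 0.13 for LM and 0.31 ± 0.13 for LM-LM (adjusted p = 0.00976 and 0.0411). Without LM3-LM the Aifm2 difference in LM-LM was 0.01 (adjusted p = 0.917), and without LM3 that in LM had adjusted p = 0.124. Without MYAZ12.3i neither passed (adjusted p = 0.116 and 0.3). The LM-LM call was lost without replicates 1, 2 and 3 in turn (adjusted p from 0.0747 to 0.157) and the LM call without replicate 3 (0.0583). On line sums neither passed (adjusted p = 0.245 and 0.341), and the LM-LM call passed in 10 of 23 fits.

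**Figure D5:**
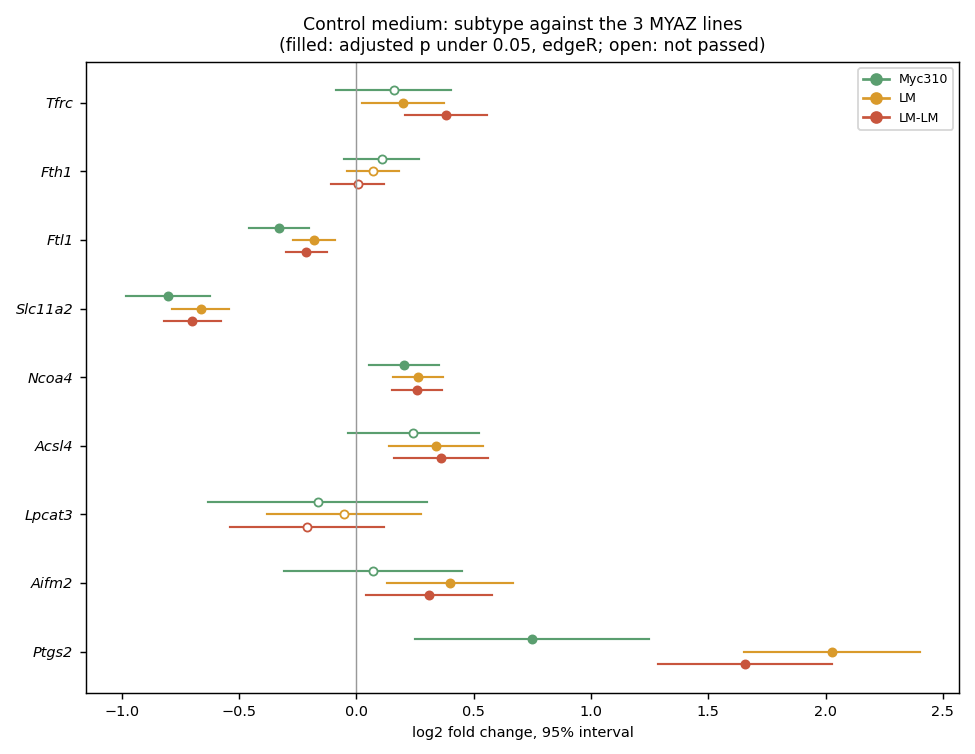
Log2 fold change of Myc310, LM and LM-LM against the 3 MYAZ lines in control medium, with 95% intervals, filled where adjusted p was under 0.05. Intervals and adjusted p count each culture as a separate sample. Slc40a1 is left out because its counts fix no fold. Ptgs2 lies at 2.03 in LM, and Slc11a2 lies between -0.80 and -0.66 in the 3 subtypes.

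In the pathway lists LM-LM differed from MYAZ in both directions, as did 30.5% (higher) and 32.3% (lower) of all 13795 genes, and several of the counts below lie at or under those shares. In the list of iron uptake and movement 5 were higher and 5 lower of 13 tested. Flvcr1 (0.47) and Poldip2 (0.34) were up and Lcn2 (-1.34) and the ferroxidase Cp (-2.09) down on the log2 scale. Poldip2 stands here through the choice of the list, and a role of it in iron handling was not examined. Cp had 305, 314 and 291 CPM in MYAZ12.3i and 47.5, 47.2 and 43.8 CPM in LM1-LM. For iron sensing and use 5 were higher and 4 lower of 17, with Hmox1 (0.86) and Cisd1 (0.75) up and Iscu (-0.31) and Bach1 (-0.44) down. For defence 4 were higher and 7 lower of 20, with Coq2 (0.67) and Secisbp2 (0.36) up and Slc7a11 (-0.68) and Nqo1 (-1.28) down, while Gpx4 did not pass (-0.03). For lipid peroxidation 9 were higher and 5 lower of 18, led by the prostaglandin enzymes Ptges (3.96) and Ptgs1 (1.52), with Fads2 (-0.65) and Fads1 (-0.72) down. Ptges acts directly after Ptgs2, and stood at 9.52, 9.72 and 10.6 CPM in MYAZ16.1e and 128, 126 and 127 CPM in LM1. Under deprivation Ptges did not follow Ptgs2 in LM1, falling to 63.3, 66.2 and 72.5 CPM (log2 fold change -0.88 ± 0.04, adjusted p = 1.55e-17), whereas Ptgs1 rose by 0.80 ± 0.03 (adjusted p = 8.88e-21). Deprived over control CPM of Ptges was 0.599 in Myc310 and 0.493 in LM1-LM. In MYAZ16.1e it was 0.991, and control and deprived cultures overlapped there. List medians for LM-LM were 0.00, -0.03, -0.06 and 0.26, beside -0.01 over all genes. Steap3, Ireb2 and Aco1 did not pass (0.00, -0.03 and -0.05), and Fbxl5 was lower (-0.25). Myc, the driver of these tumours, was lowest in MYAZ16.1e (409, 426 and 429 CPM) and highest in Myc310 (1356, 1325 and 1323 CPM) among the 10 lines.

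The line with NDI1 had less Ftl1 and Ncoa4 and more Acsl4 than its parent MYAZ12.3i, calls that held in all 11 fits. In all, 2 of the 10 genes were higher and 2 lower, with 8.14% and 9.27% of 12841 genes called, and the median log2 fold change was 0.05. Markers moved too: 2 of 4 epithelial, 2 of 5 fibroblast and 1 of 2 leukocyte markers tested were higher. Lower were 1 fibroblast marker and 1 of 3 alveolar markers, and the single endothelial marker did not pass. The part of these markers in the NDI1 differences was not tested. Ftl1 had 2688, 2696 and 2669 CPM in the parent and 2327, 2303 and 2333 CPM with NDI1 (-0.21 ± 0.02, adjusted p = 3.79e-05). Ncoa4 had 142, 139 and 143 CPM and 120.0, 125 and 121 CPM (-0.21 ± 0.03, adjusted p = 0.000362). Both were lower without overlap. The ratio of Fth1 to Ftl1 counts was 0.890 in the parent and 1.06 with NDI1. Acsl4 rose from 80.2, 77.3 and 77.2 CPM to 88.3, 94.5 and 92.3 CPM (0.23 ± 0.04, adjusted p = 0.00115). Lpcat3 was higher by 0.11 ± 0.04 (adjusted p = 0.0477), a call lost when any 1 of the 3 replicates was left out (adjusted p from 0.129 to 0.224), and also with DESeq2, upper-quartile scaling and the looser filter (0.169, 0.056 and 0.079). The other 6 did not pass, among them Ptgs2, with a 95% interval of -0.26 to 0.39.

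The genes whose mean log2 CPM over the 15 groups of line and medium followed each gene most closely, among 9090 genes whose average log2 CPM was 3 or more, were Dus2 (r = 0.98) and Dstyk (r = 0.98) for Ptgs2 and Vangl1 (r = 0.99) and Nlgn2 (r = 0.98) for Slc11a2. For Ftl1 they were Zfp143 (r = 0.95) and Ets1 (r = 0.93), and for Fth1 Bud13 (r = 0.95) and Abi2 (r = 0.92). Ncoa4 was followed by Tm9sf1 (r = 0.96) and Plekhj1 (r = 0.94), Acsl4 by Pdik1l (r = 0.96) and Procr (r = 0.95) and Lpcat3 by Krt19 (r = 0.92) and Asb8 (r = 0.92). Aifm2 was followed by Chmp5 (r = 0.91) and Lmbr1l (r = 0.89) and Tfrc by Cep170b (r = 0.89) and Nemf (r = 0.85). These correlations describe 15 points that share lines and medium, and Slc40a1 was too low to be ranked.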

How the data were processed

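The study's methods and the labels name alignment to GRCm38 with STAR and counting with RSEM, and the table the authors deposited holds whole-number counts per gene, without normalization. DESeq2 1.38.3 under R 4.2.2 is also named in the submitters' processing notes. Here edgeR 4.0.16 in R 4.3.3 (TMM, filterByExpr, quasi-likelihood test, Benjamini-Hochberg over all genes tested, threshold 0.05) fitted 24 libraries in 8 groups for deprivation and its interactions, 30 by subtype and 6 for NDI1. CPM came from scaling all 45 libraries together, so CPM ratios differ slightly from fitted folds. Errors beside log2 fold changes are SE, and log2 CPM used a prior count of 2. Alternatives were RLE and upper-quartile scaling, looser (1 count) and stricter (10 counts in each library) filters, a block for the replicate number, DESeq2 1.42.0, limma 3.58.1 voom with a random block per line, counts summed per line, other sets of libraries, and leaving out a replicate or line. The 10 genes and the lists were chosen with earlier results of these data known. Named besides the 10 are 8 reference genes, Myc, the 2 largest increases and decreases past the threshold in each pathway list (average log2 CPM of 3 or more, for deprivation with 1 sign in all 4 lines) and the 2 genes most alike to each. The markers named, and Ptges and Ptgs1 under deprivation, were chosen after their values were seen. Of the genes that make up the pathway and marker lists, 8 were not used here, and 1 that the rule names is not reported here.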

Additional observations from a re-analysis of the deposited data

Results flagged for a closer look

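20 differences between lines were picked out because the response of a gene to deprivation, tested as an interaction, differed from that of MYAZ16.1e; all are log2 differences and share the MYAZ16.1e libraries. Ptgs2 responded more strongly in Myc310 (1.52), LM1 (2.24) and LM1-LM (2.23). Ftl1 differed by 0.30 for Myc310, 0.69 for LM1 and 0.69 for LM1-LM, and Fth1 by 0.12, 0.23 and 0.20 in the same lines. Acsl4 differed by 0.20, 0.35 and 0.42, and Ncoa4 by -0.28, -0.15 and -0.10. Slc11a2 differed in LM1 (-0.21) and LM1-LM (-0.21), Lpcat3 in LM1 (0.24) and LM1-LM (0.22), and Tfrc in Myc310 (0.15). Under upper-quartile scaling the calls on Fth1 in Myc310 and Lpcat3 in LM1 and LM1-LM were lost, with adjusted p = 0.0998, 0.0562 and 0.109. Groups of 3 cultures are too small for the search for single outlying values, which needs 4. Whether the differences belong to the subtype or to the single line cannot be told apart.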

How the results depend on the processing

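With the line as the unit, calls against MYAZ fell. On counts summed per line 1429, 3788 and 4226 genes passed in Myc310, LM and LM-LM (1, 3 and 3 of the 10), against 7022, 8385 and 8661 (4, 8 and 8); voom with line as a random block gave 2819, 4759 and 5054 genes, and 2 of the 10 in Myc310. Without MYAZ12.3i 5 of the 10 passed in LM. Leaving out a replicate gave 2 to 3 of the 10 in Myc310 and 898 to 1326 genes for NDI1 (2236). Upper-quartile scaling lowered the share of higher calls in the interaction, 51.5% for LM1 and 51.7% for LM1-LM, to 41.0% and 41.6%. Reversed signs, none past the threshold except Acsl4 below, were as follows. Upper-quartile scaling gave -0.00814 for the Slc11a2 interaction in Myc310 and -0.00811 for Fth1 in LM-LM. The looser filter gave 0.00552 for the Tfrc interaction in LM1, the stricter -0.0112 for Fth1 in LM-LM. A fit of Myc310 alone gave 0.00706 for Lpcat3. In the fit of the deprived lines' control cultures Tfrc was -0.0345 and -0.0367 and Acsl4 -0.0800 and -0.0839 in LM and LM-LM. Without MYAZ12.3i Aifm2 in Myc310 was -0.0667; without LM1 or MYAZ16.1e Lpcat3 in LM was 0.16 and 0.0633; without MYAZ16.1e Fth1 was -0.0191 in LM. In LM-LM Fth1 was -0.0489, -0.0837, -0.0138 and -0.0141 without LM3-LM, MYAZ16.1e, MYAZ6.6g and Myc310. Over left-out replicates log2 values ran from -0.00805 to 0.0326 for Acsl4 in deprived MYAZ16.1e, -0.0302 to 0.0363 for Lpcat3 in deprived Myc310, -0.0178 to 0.0989 for the Slc11a2 interaction in Myc310, -0.00474 to 0.0377 for Fth1 in LM-LM, and for NDI1 -0.24 to 0.0804 (Slc40a1), -0.0348 to 0.11 (Aifm2) and -0.22 to 0.27 (Ptgs2). Causes were not tested.

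Control and deprived cultures of the same number did not deviate together (correlations from -0.14 to 0.11), so the numbers do not pair them. With the replicate block 9494 genes passed in deprived LM1 (9524 without), and the calls lost were Tfrc in LM (adjusted p = 0.0564), Aifm2 in LM-LM (0.0502) and Lpcat3 with NDI1 (0.0608). Depth limits Slc40a1, at 25 counts or fewer per library. Slc40a1 had no value against MYAZ with the strict filter, without MYAZ12.3i, in the fit of the deprived lines' control cultures and, for LM and LM-LM, without Myc310. Under upper-quartile scaling the Tfrc interaction in LM1-LM passed (adjusted p = 0.0137). In Myc310 against MYAZ, Acsl4 passed without MYAZ16.1e (0.0132) and Tfrc without LM2-LM (0.0488), and Tfrc passed for NDI1 with DESeq2 (0.0493).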
